A study of Capra hircus with 6 samples.

Results

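The genes described here are 43 hypoxia-inducible and glycolysis genes, measured by messenger RNA sequencing in goat (Capra hircus) mGSCs-I-SB cells. They were taken by gene name from the 16599 genes with values, and no threshold on a level or difference was part of the rule. They comprise 17 hypoxia-inducible genes outside glycolysis, 4 genes of the hypoxia-inducible factor (HIF) itself (HIF1A, EPAS1, ARNT and VHL), 3 genes of glycogen synthesis and 19 glycolytic enzymes. All 43 had values, LDHA being listed as LDH-A, and 42 had enough counts to be tested. The labels give the cell type of mGSCs-I-SB as spermatogonial stem cells, which renew themselves in the testis and give rise to sperm. Cells expressed a control hairpin RNA (shCON, labelled wild type), a hairpin RNA against UCHL1 (shUCHL1, a ubiquitin hydrolase and marker of spermatogonia) or a hairpin RNA against HSPA8 (shHSPA8, the constitutive HSP70 chaperone). Each group had 2 libraries, and all cells shared the same serum-containing medium, 37 °C and 5% CO2. No oxygen level is stated. How many hairpins, clones or separate cultures stand behind a group is not stated in the labels, so the spread behind the p-values is that between libraries and could be technical only.

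HIF is a pair of proteins, an oxygen-controlled α subunit (encoded by HIF1A or EPAS1) and a stable partner (ARNT). In the presence of oxygen, prolyl hydroxylases such as EGLN1 and EGLN3 mark the α subunit for ubiquitination by the VHL complex, so HIF is regulated mainly as a protein, which RNA sequencing does not measure. When oxygen falls, HIF induces genes for blood vessel growth, acid handling, mitophagy and glycolysis, and it induces EGLN3 itself as feedback. Glycolysis turns glucose into pyruvate, which lactate dehydrogenase can turn into lactate. In the testis, Sertoli cells are known to supply lactate to germ cells.

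Total counts per library ran from 15710532 to 16417274. UCHL1 stood at 405.4 and 451.1 CPM (counts scaled to a common library size) in the shCON libraries, 94.3 and 97.7 in shUCHL1, and 385.7 and 334.1 in shHSPA8. HSPA8 stood at 4016.1 and 4112.1, 5252.1 and 5344.5, and 2631.3 and 2527.5 CPM in the same order. Both targeted genes were therefore lowest in the line labelled with their hairpin. Of 19 spermatogonial markers looked up, 10 had values. The germ cell gene DDX4 lay between 0.428 and 1.95 CPM and KIT at 0 or 1 counts, while THY1 and ITGA6, which other cell types express too, were well detected and the list summed to between 242.4 and 704.8 CPM with UCHL1 included. All 14 myoid and fibroblast markers had values and summed to between 28940.6 and 39593.7 CPM. That sum was 28940.6 and 31151.7 CPM in shCON, 32704.5 and 33444.5 in shUCHL1, and 39593.7 and 39032.5 in shHSPA8, and its part in the results below was not tested. In shUCHL1 3 of these 14 markers were called higher and 6 lower, the contractile genes ACTA2 and TAGLN being lower there. In shHSPA8 5 were higher and 2 lower. That is 64.3% and 50.0% called, beside 15.7% and 14.7% of all genes tested. Endothelial markers summed to 55.1 and 52.7 CPM in shCON, mostly EMCN, and to 13.8 CPM or less in each knockdown library. EMCN fell from a mean of 50.9 CPM in shCON to 8.86 in shUCHL1 and 7.25 in shHSPA8. Of the 5 tested, 4 had log2 values above zero in shUCHL1 and 3 in shHSPA8. In each line 1 was called higher and 1 lower against shCON, or 40.0% beside the same shares of all genes. That share is a description only. VWF (9 and 6 counts in shCON) passed the low-count filter only through shUCHL1, where it is high. KDR (7 and 6 counts in shCON) passed only through shHSPA8, where it is high. In bulk RNA, fewer cells of a type and less RNA per cell cannot be told apart.

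The 2 libraries of shCON, and those of shHSPA8, differed by transcript length, in opposite directions. Transcript lengths here were derived from the deposited counts and FPKM (fragments scaled to transcript length and library size), not from an annotation. They include 90.2 bases for PFKL. Among the tenth of genes with the shortest transcripts (median 607 bases), the median log2 difference of replicate 2 over replicate 1 was 0.238 in shCON, 0.042 in shUCHL1 and -0.152 in shHSPA8. Among the longest (median 7313 bases) it was -0.311, -0.08 and 0.259. The glycolytic enzymes have short transcripts, with a median of 1621 bases against 2548 for all genes tested, and 15 of 19 were higher in shCON replicate 2 than in replicate 1 (median 0.21), while 17 of 19 were higher in shHSPA8 replicate 1 than in replicate 2. All 4 HIF genes, with a median of 3416 bases, moved the other way in both lines (medians -0.27 and 0.39). HIF1A, at 2964.5 bases, moved by -0.551 and 0.465, further than the median of any length bin. PFKFB3, at 4048.4 bases, was at 0.17 in shCON, where genes with a median of 4016 bases were at -0.112. Over 12655 genes the Spearman correlation of the replicate difference with length was -0.49 in shCON, -0.27 in shUCHL1 and 0.48 in shHSPA8. How far the shifts of single members follow length was not tested. The hypoxia-inducible genes went both ways within a line, so that their medians were small (-0.03, 0.04 and 0.06). In shCON 7 of 16 were higher in replicate 2 and 9 in replicate 1. Single genes still differed, with BNIP3 at 0.269 and STC1 at -0.241 in shCON, and MXI1 at 0.42 in shHSPA8. Results on glycolytic enzymes and on HIF1A are therefore given with and without single libraries.

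**Figure D1:**
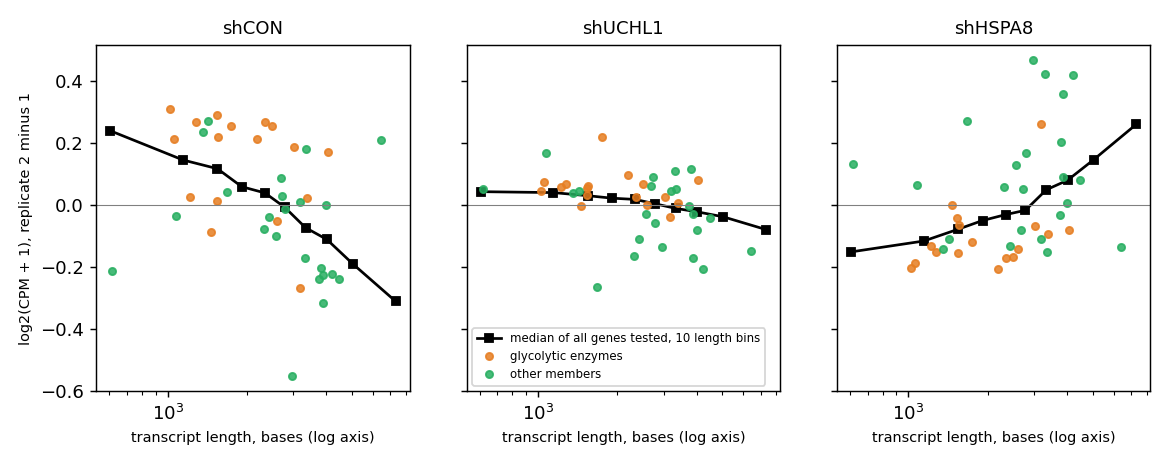
Difference between the 2 libraries of each line, as log2(CPM + 1) of replicate 2 minus replicate 1, against transcript length in bases (log axis), derived from counts and FPKM. Each point is a member, ALDOC and PFKL being left out, and the black line joins the medians of 10 length bins of all genes tested. In shCON the line falls from 0.238 to -0.311, in shHSPA8 it rises from -0.152 to 0.259, and in shUCHL1 it stays between 0.042 and -0.08.

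Among the 17 hypoxia-inducible genes outside glycolysis, 7 rose and 1 fell in shUCHL1 against shCON, out of 16 tested with edgeR. This is 50.0% of them, where 15.7% of all 12665 genes tested were called at an adjusted p under 0.05 (8.54% higher, 7.15% lower). In shHSPA8 against shCON 4 of 16 rose and none fell, or 25.0%, where 14.7% of all genes were called (8.66% higher, 6.02% lower). One of these 4 is ANGPTL4, which passed the low-count filter only through the knockdown libraries, where it is high. Without it 3 of 15 rose in shHSPA8 and 7 of 15 in shUCHL1, and the median log2 fold change was 0.43 in shUCHL1 and 0.07 in shHSPA8, beside 0.01 and 0.00 for all genes tested. Without shUCHL1 replicate 1 the count in shUCHL1 was 3, and without replicate 2 it was 4, with medians of 0.48 and 0.41 over all 16. The knockdown lines share the 2 shCON libraries, so their differences from shCON are not independent of each other.

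The genes with the largest differences were STC1 and CA12. STC1 (gene ID 102179386), which encodes the secreted glycoprotein stanniocalcin 1, stood at 1.77 and 1.35 CPM in shCON, at 7.64 and 7.61 in shUCHL1, and at 6.76 and 6.59 in shHSPA8. Every knockdown library lay above both shCON libraries, on 50 counts summed over shCON. Such separation is common here. The libraries of 56.5% of all 12665 genes tested did not overlap between shUCHL1 and shCON. The share was 51.0% between shHSPA8 and shCON and 65.7% between the knockdown lines. STC1 rose by 2.29 on the log2 scale in shUCHL1 (SE 0.19, edgeR adjusted p = 0.000566) and by 2.10 in shHSPA8 (SE 0.19, edgeR adjusted p = 0.000621). CA12 (gene ID 102171159), a membrane-bound carbonic anhydrase that acts in acid export, was at 27.6 and 27.6 CPM in shCON, at 118.8 and 112.2 in shUCHL1, and at 157.2 and 157.6 in shHSPA8. The CA12 libraries of a line were close together and the 3 lines did not overlap, with log2 fold changes of 2.06 (SE 0.09, edgeR adjusted p = 8.34e-05) and 2.51 (SE 0.09, edgeR adjusted p = 2.29e-05). CA9, the other membrane carbonic anhydrase that HIF is known for, was too low to test, at 1 and 3 counts in shCON, 7 and 10 in shUCHL1 and 2 and 1 in shHSPA8.

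VEGFA, the vascular growth factor, rose in both lines too. Its libraries stood at 181.2 and 179.3 CPM in shCON, 298.3 and 286.1 in shUCHL1, and 366.2 and 411.0 in shHSPA8, in 3 separate ranges. The log2 fold change of VEGFA was 0.70 in shUCHL1 (SE 0.09, edgeR adjusted p = 0.00297) and 1.11 in shHSPA8 (SE 0.09, edgeR adjusted p = 0.00035). Without shUCHL1 replicate 1 the first was 0.65, with an edgeR adjusted p of 0.0513. ANGPTL4, which encodes an inhibitor of lipoprotein lipase, was measured on few reads, at 8 and 9 counts in shCON, 21 and 15 in shUCHL1, and 27 and 35 in shHSPA8. Its log2 values were 1.89 in shHSPA8 (SE 0.33, edgeR adjusted p = 0.0104, and 0.0665 without shHSPA8 replicate 2) and 1.03 in shUCHL1 (edgeR adjusted p = 0.109). As ANGPTL4 was tested only because of its counts in the knockdown libraries, these are given as a description.

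EGLN3 differed in opposite directions in the 2 lines. EGLN3 (gene ID 102179524), the prolyl hydroxylase that HIF induces, was at 3.99 and 3.86 CPM in shCON, 9.41 and 8.63 in shUCHL1, and 2.72 and 2.39 in shHSPA8. It rose by 1.20 in shUCHL1 (SE 0.16, edgeR adjusted p = 0.00324), while its value of -0.62 in shHSPA8 missed the threshold (95% interval -1.04 to -0.19, edgeR adjusted p = 0.0651) and passed it only when the fit carried a term for transcript length (edgeR adjusted p = 0.0352). Set directly against each other, the lines differed by 1.82 for EGLN3 (SE 0.17, edgeR adjusted p = 0.00125). The related hydroxylase EGLN1 was at 103.3 and 88.1 CPM in shCON, 115.9 and 113.4 in shUCHL1, and 97.5 and 103.8 in shHSPA8, and passed in no comparison, with a log2 fold change of 0.26 in shUCHL1 (95% interval 0.01 to 0.51). Per transcript length, as deposited FPKM, EGLN1 exceeded EGLN3 by 16.1 and 14.3 times in shCON, by 7.70 and 8.21 times in shUCHL1 and by 22.2 and 27.1 times in shHSPA8.

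BNIP3, BNIP3L and NDRG1 were higher in shUCHL1 than in the other 2 lines. BNIP3, a receptor for mitophagy on the mitochondrial outer membrane, stood at 154.9 and 186.9 CPM in shCON, 233.3 and 240.5 in shUCHL1, and 179.3 and 165.8 in shHSPA8. Its relative BNIP3L was at 74.6 and 75.1 CPM, 106.7 and 110.1, and 83.4 and 77.1 in the same order. NDRG1, a stress-responsive gene long used as a hypoxia marker, was at 271.0 and 287.9, 396.0 and 412.6, and 307.2 and 290.6 CPM. For all 3 genes both shUCHL1 libraries lay above the 4 others. Of all genes tested, 29.5% had both shUCHL1 libraries above those of shCON, and 33.9% had them above those of shHSPA8. Against shCON they rose in shUCHL1 by 0.47, 0.53 and 0.53 on the log2 scale (SE 0.11, 0.09 and 0.08), with edgeR adjusted p-values of 0.0288, 0.00885 and 0.00611. In shHSPA8 the log2 values were 0.01, 0.10 and 0.10, with 95% intervals of -0.24 to 0.27, -0.11 to 0.31 and -0.09 to 0.29. Without either shUCHL1 library none of the 3 calls held, with edgeR adjusted p-values between 0.0791 for NDRG1 without replicate 1 and 0.222 for BNIP3 without replicate 2, though the log2 values stayed between 0.43 and 0.55.

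BHLHE40, a transcriptional repressor, went the other way. It stood at 88.1 and 89.9 CPM in shCON, 61.5 and 65.5 in shUCHL1, and 71.7 and 74.3 in shHSPA8, with both shCON libraries the highest. BHLHE40 fell by 0.49 in shUCHL1 (SE 0.09, edgeR adjusted p = 0.0121), a call lost without shUCHL1 replicate 1 (edgeR adjusted p = 0.17) or replicate 2 (edgeR adjusted p = 0.104). In shHSPA8 its log2 value was -0.29 (95% interval -0.49 to -0.08, edgeR adjusted p = 0.0769).

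The other hypoxia-inducible genes passed in neither comparison with shCON. KDM3A, a histone demethylase, was at 88.5 and 74.9 CPM in shCON, 102.1 and 99.2 in shUCHL1, and 73.2 and 77.4 in shHSPA8. MXI1, an antagonist of MYC, was at 8.55 and 7.47, 9.71 and 10.6, and 4.87 and 6.85 CPM. For both genes the 2 shUCHL1 libraries were the highest of the 6. PDK1, a kinase that inhibits pyruvate dehydrogenase, ADM, the vasodilator adrenomedullin, HILPDA, a lipid droplet protein, and ANKRD37 had log2 values of 0.37, 0.15, 0.35 and 0.43 in shUCHL1 and of 0.19, -0.06, 0.16 and -0.41 in shHSPA8. In shUCHL1 the upper 95% bounds of these 4 values were 0.65, 0.44, 0.75 and 0.95. Under library-size scaling PDK1 (0.45, edgeR adjusted p = 0.0418) and KDM3A (0.38, edgeR adjusted p = 0.047) passed in shUCHL1. The median of all genes was then 0.09, and MXI1, ADM, HILPDA and ANKRD37 did not pass.

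**Figure D2:**
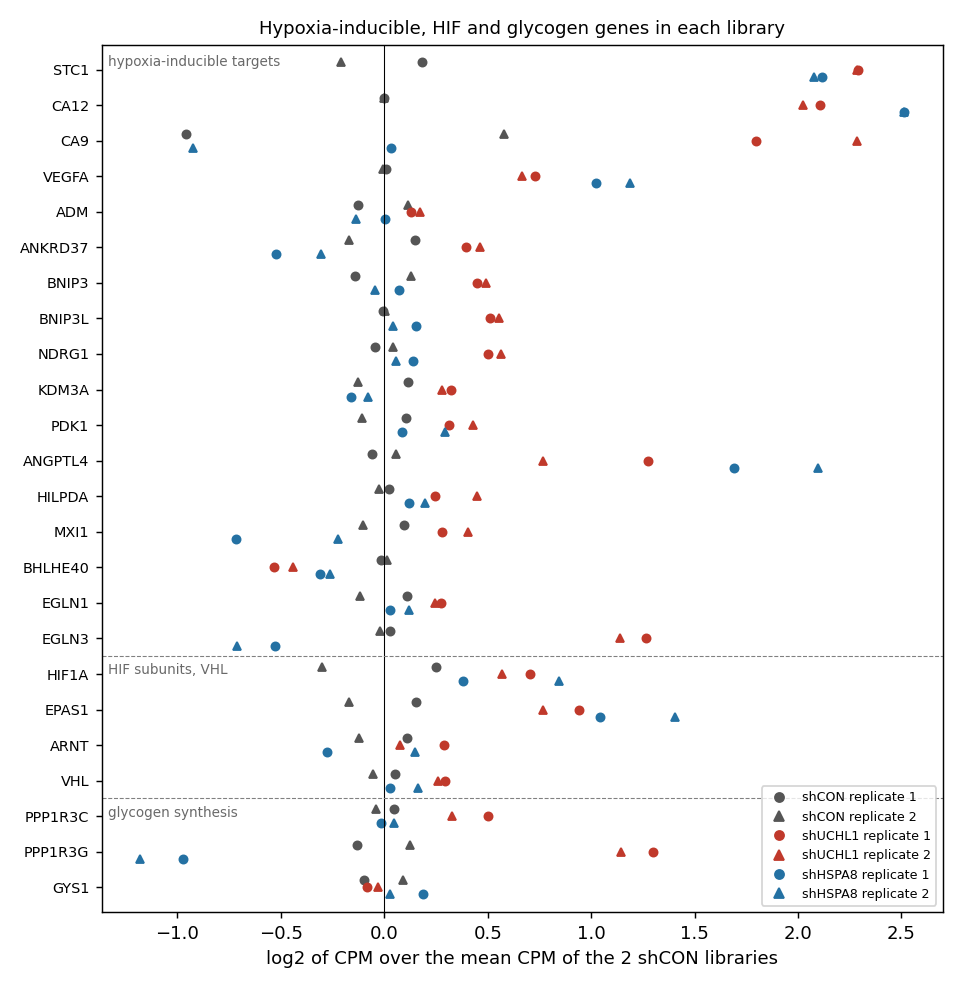
Level of each hypoxia-inducible, HIF and glycogen gene in each of the 6 libraries, as log2 of its CPM over the mean CPM of the 2 shCON libraries (horizontal axis). Circles are replicate 1 and triangles replicate 2. STC1 and CA12 lie above 2 in every knockdown library, EGLN3 and PPP1R3G lie to the right in shUCHL1 and to the left in shHSPA8, and CA9 rests on 10 or fewer counts in each library.

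The HIF α subunits were higher in the knockdown lines, but HIF1A did not pass the test. EPAS1, which encodes HIF-2α, stood at 63.6 and 50.9 CPM in shCON, 109.8 and 97.4 in shUCHL1, and 118.0 and 151.3 in shHSPA8. All 4 knockdown libraries lay above both shCON libraries, and EPAS1 rose by 0.86 in shUCHL1 (SE 0.16, edgeR adjusted p = 0.0131) and by 1.23 in shHSPA8 (SE 0.16, edgeR adjusted p = 0.0029). The first call was lost without shUCHL1 replicate 1 (edgeR adjusted p = 0.106) or replicate 2 (edgeR adjusted p = 0.0576). HIF1A was at 406.4 and 277.0 CPM in shCON, 556.7 and 506.6 in shUCHL1, and 444.7 and 614.1 in shHSPA8. The shCON libraries were the lowest but far apart, and the log2 values of HIF1A were 0.64 (95% interval 0.15 to 1.12, edgeR adjusted p = 0.0834) and 0.63 (95% interval 0.14 to 1.12, edgeR adjusted p = 0.089). Without shCON replicate 1, the higher of the shCON libraries, the values were 0.92 and 0.91 and HIF1A passed in both comparisons. Leaving out any other single library did not make it pass in either. With DESeq2 HIF1A passed in both comparisons (adjusted p = 0.0144 and 0.0127). It also passed in shUCHL1 under library-size scaling (edgeR adjusted p = 0.0498) and in shHSPA8 with a term for transcript length (edgeR adjusted p = 0.0417).

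ARNT and VHL passed in no comparison. ARNT was at 42.0 and 35.8 CPM in shCON, 47.5 and 41.0 in shUCHL1, and 32.1 and 43.1 in shHSPA8, in overlapping ranges. VHL, the substrate receptor of the ubiquitin ligase, was at 17.4 and 16.2, 20.6 and 20.1, and 17.1 and 18.8 CPM, and its log2 value in shUCHL1 was 0.28 (95% interval 0.01 to 0.55). Per transcript length HIF1A exceeded EPAS1 in every library, by 8.48 and 6.55 times in shCON, 6.74 and 6.58 times in shUCHL1, and 4.74 and 5.62 times in shHSPA8, in deposited FPKM. The ratio was therefore lowest in the 2 shHSPA8 libraries.

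Of the glycogen genes, PPP1R3G rose in one knockdown line and fell in the other. PPP1R3G (gene ID 108633538) encodes a subunit that brings protein phosphatase 1 to glycogen, where the phosphatase activates glycogen synthase. It was at 3.74 and 4.47 CPM in shCON, 10.1 and 9.05 in shUCHL1, and 2.09 and 1.81 in shHSPA8, with no overlap between lines. PPP1R3G rose by 1.22 in shUCHL1 (SE 0.17, edgeR adjusted p = 0.00408) and fell by 1.07 in shHSPA8 (SE 0.21, edgeR adjusted p = 0.0145). Neither call held in every fit, the first being lost without shUCHL1 replicate 1 (edgeR adjusted p = 0.0545) and the second without shHSPA8 replicate 1 (edgeR adjusted p = 0.056) or replicate 2 (edgeR adjusted p = 0.0891). PPP1R3C, another glycogen-targeting subunit, had a log2 value of 0.41 in shUCHL1 (95% interval 0.14 to 0.68, edgeR adjusted p = 0.0528) and of 0.01 in shHSPA8. GYS1, the glycogen synthase of muscle and most other tissues, lay between 36.3 and 44.2 CPM in all 6 libraries and passed in no comparison.

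The glycolytic enzymes as a group stayed near the background in shUCHL1, where 2 of 19 rose and 1 fell. That is 15.8% of them beside the 15.7% of all genes. In shHSPA8 4 of 19 rose and none fell, or 21.1% beside 14.7%. The median log2 fold change, without the low-count ALDOC, was 0.02 in shUCHL1 and 0.19 in shHSPA8. The 19 enzymes took 1.31% and 1.52% of all counts in shCON, 1.49% and 1.55% in shUCHL1, and 1.72% and 1.54% in shHSPA8, so the shares of shCON replicate 2 and shHSPA8 replicate 2 lay close together. Leaving out shCON replicate 1 gave medians of 0.00 and 0.13, and leaving out shCON replicate 2 gave 0.11 and 0.29, with 6 and 8 enzymes called in shHSPA8. The other 4 single-library omissions left 2 called in shHSPA8, PFKFB4 and ENO1, which were called in every one of these fits. In shUCHL1 no enzyme was called without either shUCHL1 library, 1 without either shHSPA8 library, 4 without shCON replicate 1 and 3 without shCON replicate 2.

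**Figure D3:**
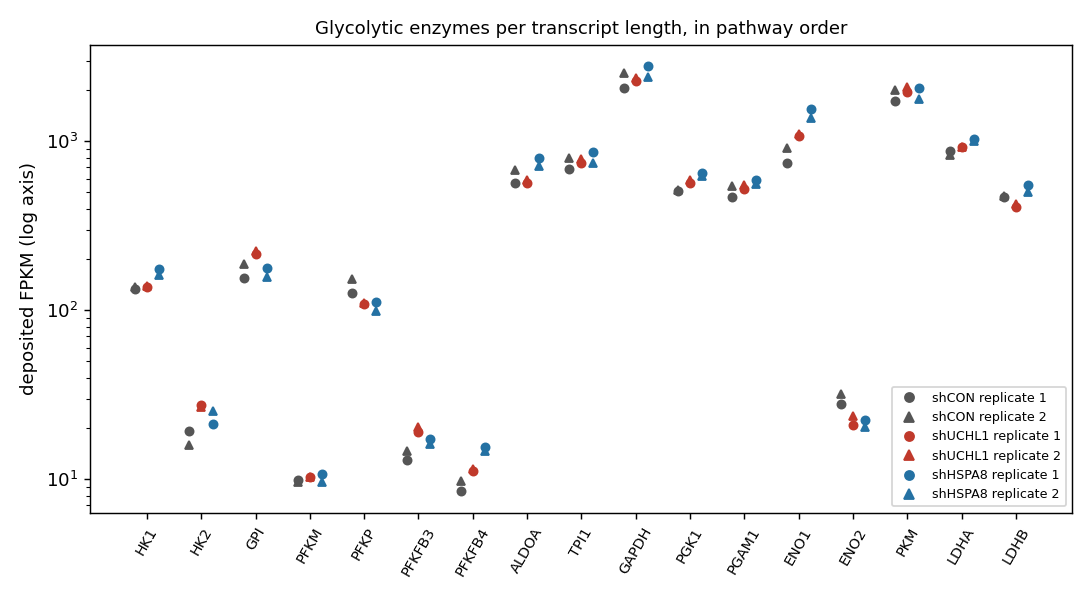
Level of the glycolytic enzymes per transcript length in each library, as deposited FPKM on a log axis, from the first step of the pathway on the left to the last on the right. ALDOC and PFKL are left out. GAPDH and PKM have the highest levels, PFKM and PFKFB4 are among the lowest, and ENO1 is lowest in shCON and highest in shHSPA8.

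ENO1 had the largest log2 fold change of the enzymes that passed against shCON. ENO1 (gene ID 102175881), the widely expressed enolase, stood at 1164.7 and 1424.3 CPM in shCON, 1601.5 and 1637.7 in shUCHL1, and 2416.6 and 2168.3 in shHSPA8, in 3 separate ranges. It rose by 0.82 in shHSPA8 (SE 0.11, edgeR adjusted p = 0.00343), while its 0.32 in shUCHL1 did not pass (95% interval 0.06 to 0.58, edgeR adjusted p = 0.0984). ENO2, the enolase named for neurons, was at 46.4 and 55.5, 34.2 and 40.0, and 43.0 and 39.6 CPM, with both shCON libraries the highest, and had log2 values of -0.46 (edgeR adjusted p = 0.0573) and -0.30. Per transcript length ENO1 exceeded ENO2 by 26.6 and 28.4 times in shCON, 51.2 and 46.3 times in shUCHL1, and 68.4 and 66.8 times in shHSPA8. These ratios did not overlap between lines, and the replicates of each line lay close together.

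Hexokinases catalyse the first step, and the 2 isoforms differed between lines. HK1, the constitutive isoform, was at 463.2 and 470.2 CPM in shCON, 448.7 and 450.6 in shUCHL1, and 603.9 and 566.0 in shHSPA8, where it rose by 0.33 (SE 0.08, edgeR adjusted p = 0.0303). HK2, the inducible isoform, was at 62.2 and 51.5, 84.7 and 82.4, and 69.1 and 82.9 CPM, and rose by 0.56 in shUCHL1 (SE 0.13, edgeR adjusted p = 0.0311). In shHSPA8 the log2 value of HK2 was 0.42 (95% interval 0.11 to 0.73, edgeR adjusted p = 0.0797). The HK1 call was lost without any one library other than shCON replicate 2, with edgeR adjusted p-values from 0.0512 without shCON replicate 1 to 0.189 without shHSPA8 replicate 1, and with DESeq2 (adjusted p = 0.0569). The HK2 call was lost without shCON replicate 2 (edgeR adjusted p = 0.0786), shUCHL1 replicate 1 (0.198) or shUCHL1 replicate 2 (0.162). HK1 exceeded HK2 in FPKM by 6.98 and 8.58 times in shCON, 4.97 and 5.14 times in shUCHL1, and 8.20 and 6.40 times in shHSPA8.

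The next steps turn on phosphofructokinase and on the bifunctional enzymes PFKFB3 and PFKFB4, which set the level of its activator fructose 2,6-bisphosphate. PFKFB4 was at 26.0 and 29.7 CPM in shCON, 32.8 and 33.4 in shUCHL1, and 48.0 and 45.7 in shHSPA8, where it rose by 0.75 (SE 0.11, edgeR adjusted p = 0.00431). PFKFB3 was at 53.4 and 60.2, 74.5 and 78.9, and 71.5 and 67.6 CPM, and rose by 0.43 in shUCHL1 (SE 0.10, edgeR adjusted p = 0.0293). For both genes all 4 knockdown libraries lay above the shCON libraries. PFKP, the platelet-type phosphofructokinase and at least 10.3 times above the muscle type PFKM in FPKM in every library, was at 303.1 and 364.4, 246.2 and 250.5, and 268.3 and 238.3 CPM. It fell by 0.43 in shUCHL1 (SE 0.11, edgeR adjusted p = 0.0433) and its log2 value in shHSPA8 was -0.40 (edgeR adjusted p = 0.0564). The PFKFB3 call held only without shCON replicate 2 (edgeR adjusted p up to 0.268 without one of the other 5) and the PFKP call only without shCON replicate 1 (up to 0.261). The PFKP call was also lost under library-size scaling (edgeR adjusted p = 0.0907), and PFKFB3 lost its call with a term for transcript length (edgeR adjusted p = 0.0912).

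Downstream of these steps PGK1 and no other enzyme but ENO1 passed against shCON. PGK1, phosphoglycerate kinase, was at 791.2 and 797.6 CPM in shCON, 842.4 and 874.7 in shUCHL1, and 1010.1 and 980.4 in shHSPA8, and rose by 0.33 in shHSPA8 (SE 0.07, edgeR adjusted p = 0.0257). That call was lost without either shUCHL1 library or either shHSPA8 library, with edgeR adjusted p-values from 0.103 to 0.147. GAPDH, the most abundant enzyme per length, stood at 2056.2 and 2521.8 FPKM in shCON, 2286.0 and 2366.5 in shUCHL1, and 2792.3 and 2393.4 in shHSPA8. PKM, pyruvate kinase, stood at 1731.6 and 2012.7, 1948.9 and 2085.0, and 2076.3 and 1777.7 FPKM. Both overlapped between lines, and the 95% intervals of their log2 fold changes were -0.33 to 0.24 and -0.22 to 0.29 in shUCHL1 and -0.10 to 0.46 and -0.20 to 0.31 in shHSPA8. GAPDH passed in shHSPA8 only without shCON replicate 2 (0.34, edgeR adjusted p = 0.0497).

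LDHA and LDHB encode the subunits of lactate dehydrogenase, and neither passed against shCON. LDHA was at 1302.6 and 1224.4 CPM in shCON, 1309.2 and 1305.0 in shUCHL1, and 1519.2 and 1517.9 in shHSPA8, with a log2 value of 0.27 in shHSPA8 (95% interval 0.09 to 0.44, edgeR adjusted p = 0.053). LDHB was at 580.1 and 590.7, 482.3 and 501.7, and 684.7 and 624.0 CPM, with a log2 value of -0.25 in shUCHL1 (edgeR adjusted p = 0.0825). In every library LDHA exceeded LDHB per length, by 1.86 and 1.75 times in shCON, 2.27 and 2.18 times in shUCHL1, and 1.86 and 2.02 times in shHSPA8. Of the rest, ALDOA had log2 values of -0.17 and 0.29, TPI1 of -0.02 and 0.13, PGAM1 of 0.01 and 0.19, GPI of 0.29 and -0.01, PFKM of 0.00 and 0.07 and PFKL of 0.33 and -0.05 in shUCHL1 and shHSPA8. ALDOA stood at 729.6 and 877.7 CPM in shCON, 697.2 and 730.7 in shUCHL1, and 1036.3 and 931.7 in shHSPA8. ALDOC, with 6, 17 and 23 counts summed in shCON, shUCHL1 and shHSPA8, could be tested but gave an interval of -0.45 to 3.30 in shUCHL1. The counts and FPKM of PFKL correspond to a transcript of only 90.2 bases, so its FPKM is not set beside the others.

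**Figure D4:**
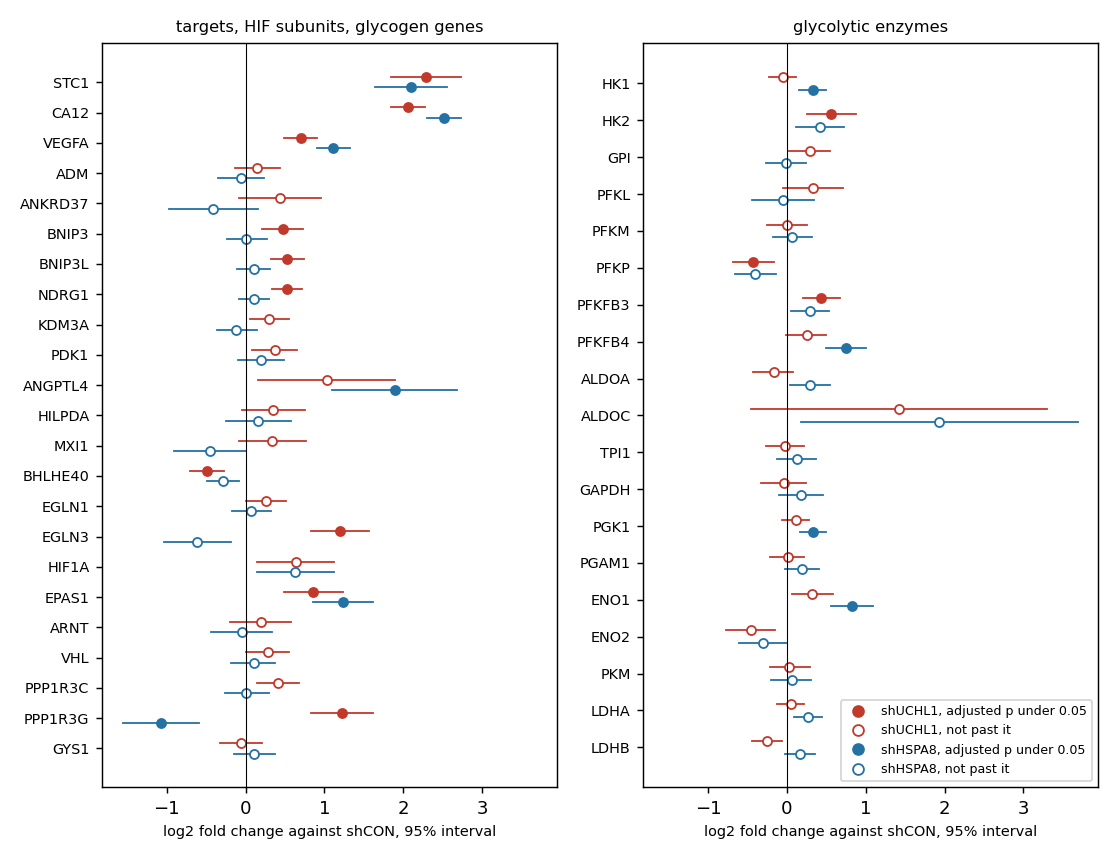
Log2 fold change of each member in shUCHL1 (red) and shHSPA8 (blue) against shCON, with its 95% interval (bars), from edgeR. Filled points have an adjusted p under 0.05. The largest values on the left are those of STC1 and CA12 (2.06 to 2.51), and most glycolytic enzymes on the right lie within 0.5 of zero, ENO1 and PFKFB4 in shHSPA8 being at 0.82 and 0.75.

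Set directly against each other, the knockdown lines differed in genes of both groups, mostly upward for the hypoxia-inducible genes and downward for the enzymes. Of 16 hypoxia-inducible genes tested, 6 were higher and 2 lower in shUCHL1 than in shHSPA8, or 50.0%, where 14.6% of all genes were called (6.20% higher, 8.35% lower). Of the 19 glycolytic enzymes none was higher and 5 were lower, or 26.3%. Median log2 values, without ANGPTL4 and ALDOC, were 0.22 for the first group and -0.17 for the second, beside 0.02 for all genes tested. Under library-size scaling the median of all genes moved to 0.12, that of the enzymes to -0.08, and PFKFB4 and LDHB, 2 of the 5 enzymes, kept a call. The share of higher calls among all genes moved from 42.6% to 64.4% under that scaling, and for shUCHL1 against shCON from 54.5% to 68.1%.

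Higher in shUCHL1 than in shHSPA8 were EGLN3 (1.82), MXI1 (0.79, SE 0.19, edgeR adjusted p = 0.0349), BNIP3 (0.46), NDRG1 (0.44), BNIP3L (0.43) and KDM3A (0.42), the last 4 with edgeR adjusted p-values from 0.0151 to 0.0426. Lower were CA12 (-0.45, SE 0.08, edgeR adjusted p = 0.0161) and VEGFA (-0.41, SE 0.09, edgeR adjusted p = 0.0234), the latter missing the threshold under library-size scaling (-0.31, edgeR adjusted p = 0.0502). STC1 had a value of 0.19 (95% interval -0.17 to 0.56). PPP1R3G differed most of all members, by 2.29 (SE 0.19, edgeR adjusted p = 0.000857). The enzymes that were lower in shUCHL1 were PFKFB4 (-0.50), ENO1 (-0.50), ALDOA (-0.46), LDHB (-0.41) and HK1 (-0.38), with edgeR adjusted p-values from 0.0182 to 0.0326. EGLN3 and PPP1R3G kept their calls without each library in turn. The other 12 calls lost theirs without at least 3 of the 4 knockdown libraries (the highest edgeR adjusted p of each lying between 0.188 and 0.283), MXI1 and LDHB keeping theirs without shHSPA8 replicate 2. Without either shCON library, 7 enzymes were lower and GPI was higher.

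**Figure D5:**
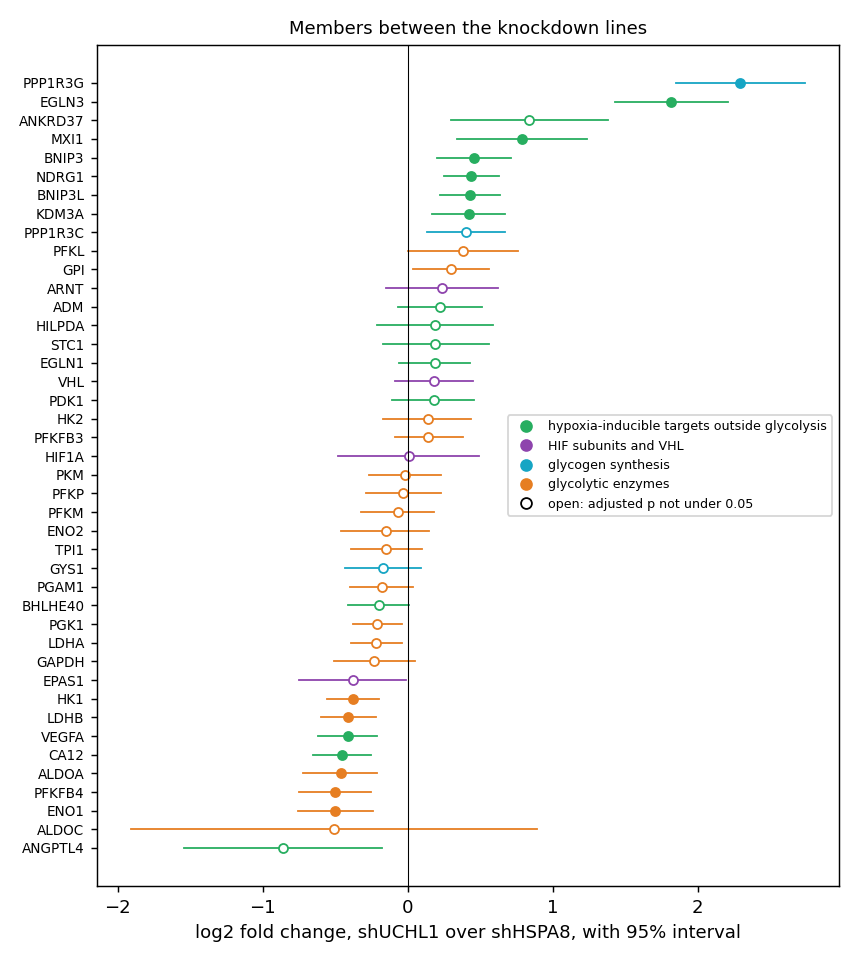
Log2 fold change of each tested member in shUCHL1 over shHSPA8 with its 95% interval, from edgeR, ordered by size and coloured by role. Filled points have an adjusted p under 0.05. PPP1R3G and EGLN3 lie at 2.29 and 1.82, and 15 of the 19 glycolytic enzymes (orange) lie below 0.

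Genes of the same pathways outside these 43 were looked up from lists chosen by function, with earlier results of these data known. The shares called in these lists are therefore a description only. Of 33 other hypoxia-inducible genes tested, 12 rose and 4 fell in shUCHL1, and 11 rose and 5 fell in shHSPA8 (medians 0.24 and 0.08). That is 48.5% called in each line, beside 15.7% and 14.7% of all genes. FLT1, a VEGF receptor, was at 6.71 and 6.06 CPM in shCON, 55.4 and 54.3 in shUCHL1, and 19.5 and 19.3 in shHSPA8, and rose by 3.10 and 1.60 (edgeR adjusted p = 8.3e-05 and 0.000252). SLC2A1, the glucose transporter GLUT1, was at 135.3 and 145.8, 245.1 and 252.2, and 374.8 and 393.7 CPM, and rose by 0.82 and 1.45 (edgeR adjusted p = 0.0012 and 0.000107). The endothelin gene EDN1, also known to be HIF-inducible, went the other way, falling by 2.25 in shUCHL1 and by 2.29 in shHSPA8. These calls of FLT1, SLC2A1 and EDN1 held without each library in turn.

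Of 20 genes of glucose and lactate transport and pyruvate entry into mitochondria, 2 rose and 3 fell in shUCHL1, and 2 rose and 5 fell in shHSPA8, or 25.0% and 35.0% beside 15.7% and 14.7% of all genes. SLC2A1, SLC2A3 and SLC16A3 are in this list and in the one before. SLC16A3, the lactate exporter MCT4, was at 121.8 and 150.5 CPM in shCON, 106.2 and 108.2 in shUCHL1, and 58.2 and 52.0 in shHSPA8, where it fell by 1.30 (edgeR adjusted p = 0.000743). SLC2A1 and SLC16A3 thus moved in opposite directions in shHSPA8. Among 13 other oxygen-sensing and HIF genes none rose and 2 fell in shUCHL1, and 1 rose and 1 fell in shHSPA8, or 15.4% in each line, near the 15.7% and 14.7% of all genes. ARNT2, a relative of ARNT, fell by 0.94 in shUCHL1 (edgeR adjusted p = 0.00126), and CUL2, the cullin of the VHL complex, fell by 0.70 in shHSPA8 (edgeR adjusted p = 0.00382). Of 10 other glycolytic and gluconeogenic genes tested, ENO3, the muscle enolase, alone passed, falling by 1.40 and 1.34, so that 10.0% were called in each line beside 15.7% and 14.7% of all genes. TKT, the transketolase of the pentose phosphate pathway, fell by 0.66 in shUCHL1, a call lost without either shUCHL1 library (edgeR adjusted p up to 0.0977).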

How the data were processed

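The authors deposited 1 table of 33229 entries. Values are given for 16599 of these and 16630 are blank. Per the file headers it gives a read count and an FPKM value (fragments scaled to transcript length and library size) for each library. Because 1014 to 1117 genes per library have decimal counts, the deposited counts were treated as estimated counts and rounded to whole numbers. The submitters' processing notes name Trimmomatic 0.36. What aligned and counted the reads, on which strand and genome build, is not given in the sources used here, so no coordinates are printed, and reads shared between paralogues (such as the enolases or aldolases) may have been split in an unrecorded way. Groups came from the sample titles. Names were matched to RefSeq ARS1.2, where all 16599 IDs were found, and LDHA was matched by a RefSeq synonym.

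Comparisons used the quasi-likelihood F test of edgeR 4.0.16 in R 4.3.3 on 12665 genes after filterByExpr and TMM scaling (factors 0.966 to 1.04), with group as the only term, all 6 libraries sharing 1 spread, p-values adjusted per comparison by Benjamini-Hochberg and called under 0.05. SE is the log2 fold change over the square root of F. CPM uses TMM factors, and FPKM served for levels per length. Alternatives used DESeq2 1.42.0 and limma 3.58.1 on log2(FPKM + 1), among 15 settings. A fit without 1 library leaves a line with 1 library, which is then assumed to vary like the others. Scripts were tested on simulated data.

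Members, lists and alternatives were chosen with earlier results of these data known. Every member is accounted for, with values per library for members past the threshold, the HIF genes and the 3 most abundant enzymes, and up to 3 called genes per direction with the lowest p from each pathway list. A few genes that this rule chose are left out.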

Additional observations from a re-analysis of the deposited data

How the results depend on the processing

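Of 225 recomputed counts and medians, 156 stayed close to the reported value, and 69 moved. The median of the enzymes in shUCHL1, 0.03, changed sign in 2 settings, with a term for transcript length and without shUCHL1 replicate 2. Of single members, 118 values lost a call, 60 gained one and 72 changed sign without being called either way, and no called value changed sign. Under library-size scaling the median of the hypoxia-inducible genes was 0.53 in shUCHL1 and 0.31 between the knockdown lines, and the enzymes had medians of 0.11 and -0.08, with 2 called between the knockdown lines. With a mean of at least 5 CPM, 1264 genes were called in shUCHL1. With only the 4 libraries compared, 1104 genes and 2 enzymes were called in shHSPA8, and 3116 and 8 between the knockdown lines. With a term for transcript length 3011, 2979 and 2873 genes were called in the 3 comparisons, with 5 enzymes (2 higher, 3 lower, median -0.01) in shUCHL1 and 8 (6 higher, 2 lower) in shHSPA8. Higher calls then made up 38.6% in shUCHL1 and 42.8% in shHSPA8, against 54.5% and 59.0%. With limma on log2(FPKM + 1) the median of the enzymes was 0.11 in shUCHL1 and -0.10 between the knockdown lines, with 2 called. The cause of these shifts was not tested.

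The labels state no pairing of same-numbered replicates, and whether they shared a culture or day is not known. The differences between the 2 libraries of a line correlated at 0.23 (shCON and shUCHL1), -0.54 (shCON and shHSPA8) and -0.23 (shUCHL1 and shHSPA8). The shifts by transcript length described above enter these correlations, so they do not settle whether the replicates were paired. With the replicate block 1230, 1131 and 923 genes were called, with 0, 2 and 0 enzymes, and 1 hypoxia-inducible gene between the knockdown lines.

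Leaving out 1 library at a time gave 528 to 2615 called genes in shUCHL1, 920 to 2416 in shHSPA8 and 257 to 3083 between the knockdown lines. Hypoxia-inducible genes called ran from 3 to 11, 3 to 4 and 1 to 9, with medians of 0.41 to 0.53, 0.03 to 0.10 and 0.19 to 0.29. Enzymes called ran from 0 to 4, 2 to 8 and 0 to 8, with medians of -0.02 to 0.11, 0.13 to 0.29 and -0.22 to -0.11. In shUCHL1 3 of 13 member calls held without each library (STC1, CA12 and EGLN3), and in shHSPA8 6 of 10 (STC1, CA12, VEGFA, EPAS1, PFKFB4 and ENO1). Depth limits CA9, ALDOC and ANGPTL4, each with under 10 counts in both shCON libraries.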

Other observations

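Single regulators of glucose uptake and genes of glycogen turnover also differed between the lines. TXNIP, which restrains glucose uptake, stood at 60.3 and 52.3 CPM in shCON, 154.0 and 154.1 in shUCHL1, and 144.0 and 151.2 in shHSPA8, and rose by 1.45 and 1.39 on the log2 scale (edgeR adjusted p = 0.000309 and 0.000248). Its relative ARRDC4 was at 28.0 and 24.5, 49.1 and 46.3, and 47.7 and 57.6 CPM, and rose by 0.86 and 1.01, the first call being lost without shUCHL1 replicate 1 (edgeR adjusted p = 0.0613). Of 12 such regulators tested, 3 rose in shUCHL1 and 4 in shHSPA8, and none fell in either, or 25.0% and 33.3% called beside 15.7% and 14.7% of all genes. Of 23 other glycogen genes tested, 2 rose and none fell in shUCHL1, while none rose and 5 fell in shHSPA8, or 8.7% and 21.7% beside the same shares of all genes. STBD1, a glycogen-binding protein, was at 0.95 and 1.53 CPM in shCON, 6.90 and 7.43 in shUCHL1, and 2.34 and 2.65 in shHSPA8, and rose by 2.52 in shUCHL1 (edgeR adjusted p = 0.000902).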
